A study of Homo sapiens with 2 samples.

Results

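Small nucleolar RNA (snoRNA) host genes were examined for binding of ING5 in HepG2 cells, an established human liver cancer line, in which the targets of ING5 were sought by chromatin immunoprecipitation and sequencing (ChIP-seq). The host genes were taken by name from the GENCODE 44 annotation, as every gene with a symbol made of SNHG and a number, plus GAS5, ZFAS1 and DANCR. That gave 31 genes, all annotated as long noncoding RNA (lncRNA), of 38411 lncRNA and protein-coding genes on chromosomes 1 to 22 and X. Cells were untreated, and the study held 1 library made with an ING5 antibody (12416160 fragments) and 1 input DNA library (9915170 fragments), both from HepG2. The values below come from the list of 8608 peaks that the authors called in the ING5 library against the input. With 1 library there was no replicate error and no test over samples, so intervals are exact 95% intervals that cover counting error only. Positions are GRCh38.

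SnoRNA host genes make RNAs whose introns are processed into snoRNAs, the guides of ribosomal RNA modification. Box C/D snoRNAs guide methylation of ribose, and box H/ACA snoRNAs guide the change of uridine to pseudouridine. The spliced host RNA often lacks a conserved protein product and is degraded by nonsense-mediated decay, which depends on translation, and several host RNAs begin, like ribosomal protein mRNAs, with a run of pyrimidines (terminal oligopyrimidine, TOP). ING5 is a plant homeodomain protein that recognises methylated histone H3 at active promoters and works as a subunit of histone acetyltransferase complexes.

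ING5 peaks lay at the starts of most of the snoRNA host genes. A gene was counted as having a peak when a summit lay within 1000 bp of any of its annotated transcription start sites (TSSs). Of the 31 host genes, 20 had a peak (64.5%, 45.4 to 80.8), 18 of them SNHG genes together with GAS5 and ZFAS1, while DANCR had none. The same count gave 1609 of 18561 other lncRNA genes (8.67%, 8.27 to 9.08) and 6126 of 19819 protein-coding genes (30.9%, 30.3 to 31.6). The difference between host genes and other lncRNA genes was 55.8 percentage points (36.7 to 72.1). With summits counted only within 200 bp of a TSS, 12 of 31 host genes (38.7%) and 2.47% of other lncRNA genes had a peak, a difference of 36.2 points. Among the 1000 most significant peaks alone, 7 host genes (22.6%) and 1.41% of other lncRNA genes had a peak, a difference of 21.2 points.

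Host genes had peaks both beside coding promoters and away from them. Among the 17 host genes with no protein-coding TSS within 1000 bp of their own starts, 11 had a peak (64.7%, 38.3 to 85.8), against 303 of 14367 other lncRNA genes in that position (2.11%, 1.88 to 2.36). Of the 14 host genes with a coding TSS nearby, 9 had a peak (64.3%, 35.1 to 87.2), against 1306 of 4194 other lncRNA genes (31.1%, 29.7 to 32.6).

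Host genes also had more annotated starts than other lncRNA genes, which widens the sequence in which a summit counts. The median number of TSSs was 10 in host genes (2 to 111) and 1 in other lncRNA genes (1 to 196), and the median length searched was 4060 bp against 2001 bp. Among genes with 10 or more TSSs, 13 of 16 host genes had a peak (81.2%, 54.4 to 96.0) against 154 of 805 other lncRNA genes (19.1%, 16.5 to 22). With 5 to 9 TSSs the counts were 4 of 9 (44.4%, 13.7 to 78.8) and 195 of 1329 (14.7%, 12.8 to 16.7), whose intervals overlapped, and with 2 to 4 TSSs 3 of 6 (50%, 11.8 to 88.2) and 405 of 3942 (10.3%, 9.34 to 11.3).

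Promoter base composition also differed, and the gap was narrower among CpG-rich promoters, a comparison added after the data were seen. The ratio of observed to expected CpG in RefSeq promoter windows had a median of 0.868 in 16 host genes with a peak, 0.788 in 11 without, and 0.384 in 4051 windows of other lncRNA genes. Among genes with a window at a ratio of at least 0.6, 14 of 24 host genes had a peak (58.3%, 36.6 to 77.9) against 497 of 1364 other lncRNA genes (36.4%, 33.9 to 39.1), a difference of 21.9 percentage points (0.0487 to 41.6). Without a coding TSS nearby, the counts at that ratio were 8 of 13 (61.5%, 31.6 to 86.1) and 61 of 397 (15.4%, 12.0 to 19.3). Genes without a RefSeq window were left out, among them SNHG6, SNHG9, SNHG15 and SNHG25, all with a peak. GAS5, SNHG20 and SNHG14 fell below the ratio, in windows whose start lay more than 1000 bp from the canonical TSS. Being listed in RefSeq went by itself with a share of 14.6% in other lncRNA genes. How much of the narrower gap came from CpG content was not tested.

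**Figure D1:**
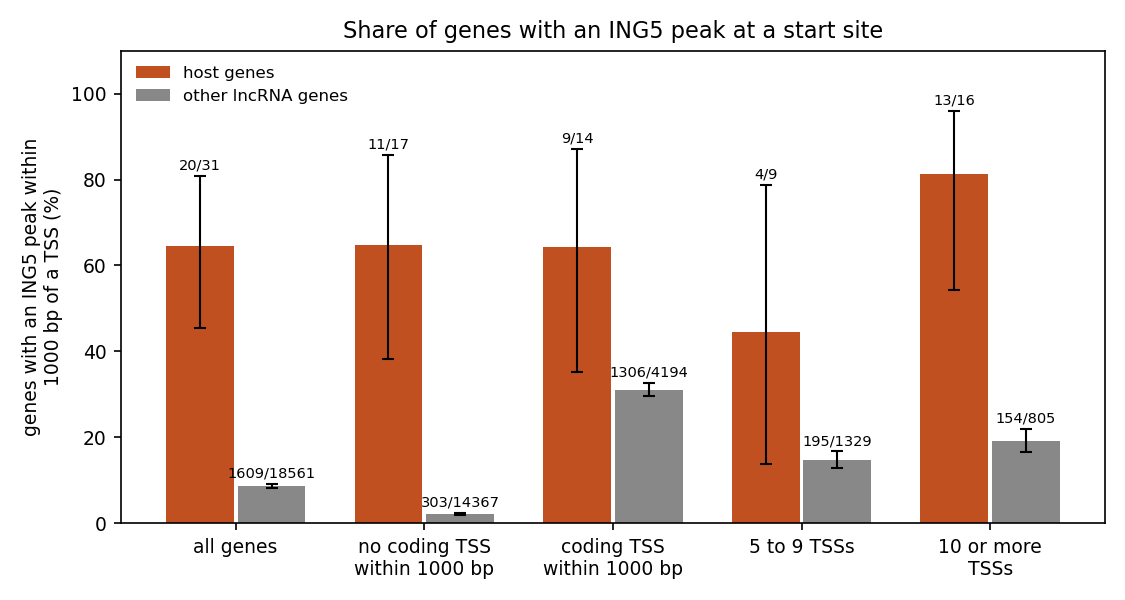
Share of genes with an ING5 summit within 1000 bp of a TSS (vertical axis, percent) for small nucleolar RNA host genes (orange) and other lncRNA genes (grey), over all genes and by coding neighbour or number of TSSs. Bars show the share, whiskers exact binomial 95% intervals and labels the counts; host genes stand at 44.4% to 81.2%, and other lncRNA genes at 2.11% to 31.1%.

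The tallest peak of a host gene stood at SNHG1, which carries 8 box C/D snoRNA genes and starts next to SLC3A2, the gene of an amino acid transporter heavy chain. Its best peak, chr11:62856078-62857606, had 35 fragments at the summit, was 18.8-fold enriched over local background in the authors' peak list and ranked 71 of all peaks by significance. A lower peak on the SNHG1 side held 18 fragments. SNHG29, with 3 box C/D snoRNA genes and no coding TSS within 1000 bp, came next by significance with 24 fragments and 13.5-fold at chr17:16439098-16440844 (rank 283). GAS5, a growth-arrest transcript that carries 11 snoRNA genes, also had 24 fragments, at 11.1-fold over a raised local background of 1.26 fragments (chr1:173866690-173867885, rank 457). The best peaks of the other host genes reached at most 24 fragments. The 35-fragment summit at SNHG1 lay on the SLC3A2 side, 138 bp downstream of the nearest annotated start of that gene. The canonical start of SLC3A2 was more than 1000 bp from this summit. The summit on SNHG1's own side was 9.85-fold enriched and ranked 980.

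A middle group of host genes had best peaks of 14 to 19 fragments. SNHG9 and SNHG7, each a carrier of box H/ACA snoRNAs, both reached 19 fragments and 10.8-fold (rank 694). SNHG12 had 19 fragments at 10.4-fold (rank 785). SNHG16 had 18 at 10.3-fold (rank 828), and SNHG15 had 17 at 9.71-fold (rank 1016). Of the 20 best peaks, 7 lay among the 1000 most significant, those of SNHG1, SNHG29, GAS5, SNHG9, SNHG7, SNHG12 and SNHG16. SNHG17, SNHG25, SNHG5 and ZFAS1 each had 15 fragments and 8.63-fold, and SNHG6 had 14 fragments and 8.09-fold.

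The other 7 host genes had peaks of 13 fragments or fewer. SNHG11 had 13 fragments but only 4.86-fold, since its local background of 1.88 fragments was the highest among the members. SNHG19 reached 12 fragments and 7.01-fold, SNHG10 and SNHG20 had 11 fragments and 6.47-fold each, and SNHG21 had 10 fragments and 5.27-fold. SNHG26 held 9 fragments at 5.40-fold. SNHG28 held 7 fragments at 4.30-fold and ranked 8476 of 8608.

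**Figure D2:**
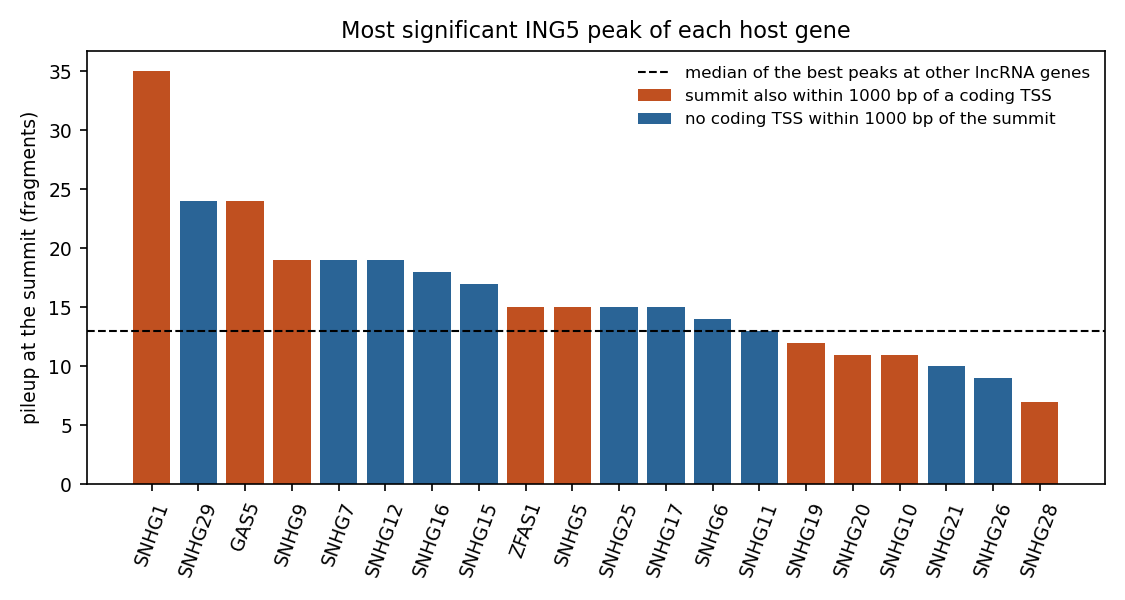
Pileup at the summit (vertical axis, fragments) of the most significant ING5 peak of each of the 20 host genes with a peak, in order of height; orange bars have a summit also within 1000 bp of a coding TSS and blue bars do not. The dashed line is the median of other lncRNA genes, 13 fragments; SNHG1 stands highest with 35 and SNHG28 lowest with 7.

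Medians of height, enrichment and width were higher at host genes than at other genes, but not beyond their intervals, whereas broad peaks were a larger share. The median pileup of the best peak was 15 fragments (12 to 19), against 13 at 1609 other lncRNA genes and 13 at 6126 protein-coding genes. Median fold enrichment was 8.63 (6.47 to 10.4) against 7.01 (6.74 to 7.01) and 7.01, and median width 610 bp (351 to 1196) against 390 bp (372 to 409) and 389 bp (381 to 397). All 3 intervals of the host genes held the medians of both other groups. Best peaks wider than 1000 bp occurred at 7 of 20 host genes (35.0%, 15.4 to 59.2), namely SNHG9, SNHG29, SNHG12, SNHG1, SNHG17, GAS5 and ZFAS1. The share was 8.70% (7.37 to 10.2) at other lncRNA genes and 6.66% (6.05 to 7.31) at protein-coding genes. More than 1 peak was found at 8 of 20 host genes (40.0%, 19.1 to 63.9), against 17.2% (15.4 to 19.2) and 23% (22 to 24.1). Both this share and that of broad best peaks come from the longer search windows of host genes given above. The best peak of a host gene was thus more often picked from several.

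Summits lay mainly downstream of the canonical start of the host gene. Measured from the canonical TSS, the median offset of the best peak was 405 bp downstream (200 to 589), and 16 of 20 best peaks lay downstream (80.0%, 56.3 to 94.3). Protein-coding genes were alike in this, with 79.0% downstream (77.9 to 80.0) and a median of 344 bp (334 to 354). Other lncRNA genes had 42.6% downstream (40.2 to 45.1) and a median of -233 bp (-276 to -170), that is upstream, and 80.9% of their best peaks were shared with a coding promoter, against 45.0% at host genes. The 4 host genes with the best peak upstream were SNHG1 (-384 bp), SNHG9 (-579 bp), SNHG7 (-635 bp) and SNHG19 (-757 bp). With the offset of the summit from the canonical TSS in brackets, other best peaks were those of SNHG16 at chr17:76557804-76558394 (406 bp), SNHG15 at chr7:44985962-44986312 (828 bp), SNHG17 at chr20:38434122-38435344 (468 bp) and ZFAS1 at chr20:49278628-49279775 (428 bp). Next in fragments were those of SNHG25 at chr17:64146138-64147093 (404 bp), SNHG5 at chr6:85678054-85678459 (332 bp), SNHG6 at chr8:66924935-66925562 (163 bp) and SNHG11 at chr20:38446810-38447289 (796 bp). The lowest of these were SNHG10 at chr14:95534356-95534562 (200 bp), SNHG21 at chr15:82750669-82750960 (223 bp), SNHG26 at chr7:22854457-22855185 (649 bp) and SNHG28 at chr1:159854465-159854669 (589 bp). SNHG12 and SNHG20 had summits 1855 and 2154 bp downstream of the canonical TSS, near other annotated starts of the same genes. Best peaks of SNHG9, SNHG7, SNHG12, SNHG19 and SNHG20 were at chr16:1962848-1964661, chr9:136728559-136729013, chr1:28580972-28582502, chr16:2156084-2156354 and chr17:77088745-77088987. Measured to the nearest of all annotated TSSs, the median offset was 68.5 bp (-104 to 211), an interval that reached both sides of the start. That median was 163 bp (154 to 172) at protein-coding genes and -170 bp (-219 to -100) at other lncRNA genes.

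**Figure D3:**
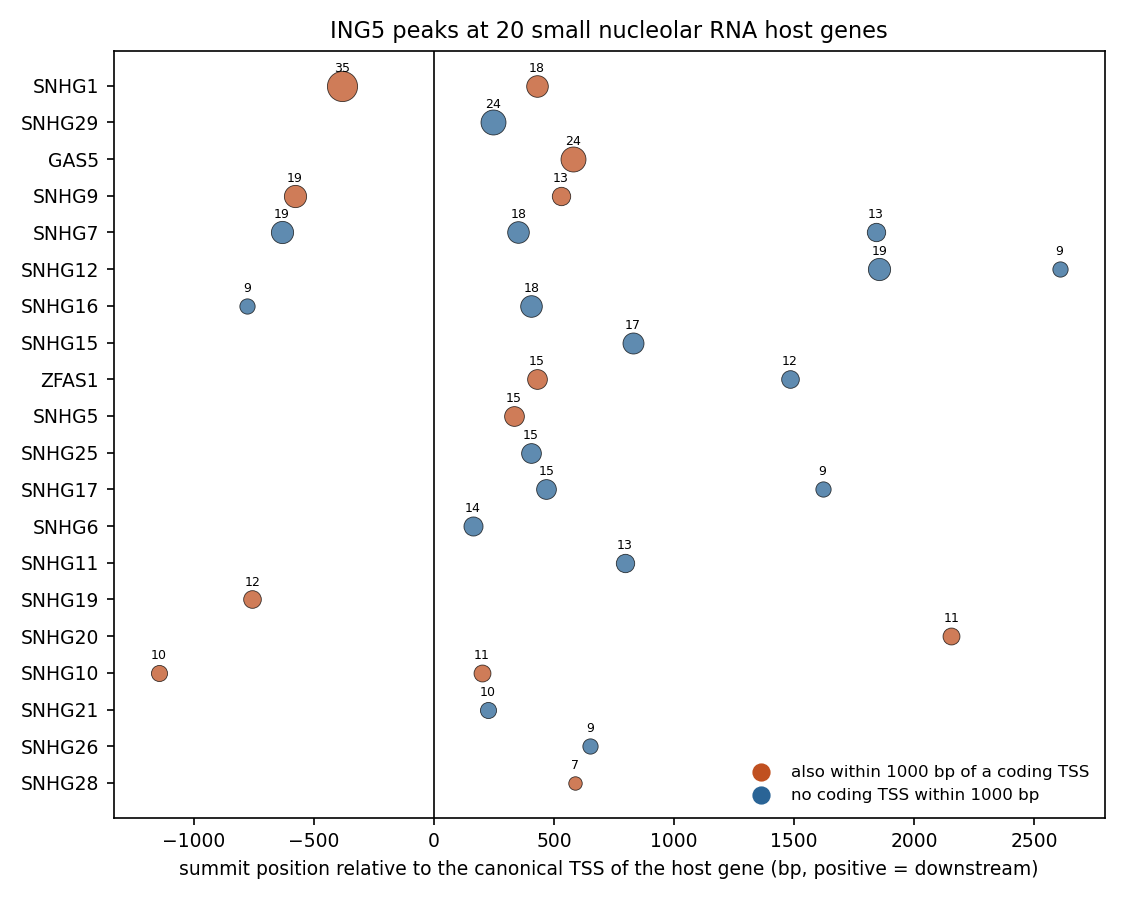
Position of all 29 ING5 summits at the 20 host genes relative to the canonical TSS of the gene (horizontal axis, bp, positive values downstream), with host genes as rows ordered by the pileup of the best peak. Circle area and the number above give the pileup in fragments, and colour shows whether a coding TSS lay within 1000 bp of the summit; best peaks lie at a median of 405 bp downstream.

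Several peaks covered the snoRNA genes themselves. RefSeq placed at least 1 snoRNA gene inside 25 of the 31 host genes, on either strand, and 16 of these 25 had an ING5 peak, as did 4 of the 6 without. Only genes of the RefSeq type snoRNA were counted, and no small Cajal body RNA (SCARNA) gene was among those found. Hosts of small RNAs typed otherwise would be counted among the 6. Box C/D snoRNAs were carried by 15 host genes, 11 of them with a peak, and box H/ACA snoRNAs by 13, 8 of them with a peak. Among the 16, a peak overlapped a snoRNA gene at 8, and 9 of their 24 peaks did so. The overlap was not counted at other genes that span a snoRNA gene, so these counts have no background share. All these peaks were chosen for a summit within 1000 bp of a TSS. The GAS5 peak covered SNORD74, SNORD75 and SNORD76, the downstream SNHG1 peak SNORD25, SNORD26 and SNORD27, and the SNHG29 peak SNORD49A and SNORD49B. At SNHG25 the summit fell inside SNORA50C. SNHG12 had a peak over SNORA16A and another over SNORA44, and SNHG7, SNHG9 and ZFAS1 had peaks over SNORA17B, SNORA78 and SNORD12C. Over all 24 peaks the median distance from summit to the nearest snoRNA gene of the host was 616 bp.

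The best peak was also a coding promoter's at 9 of 20 host genes (45.0%, 23.1 to 68.5). In 6 of them the coding gene ran the other way from a start close by. SNHG1 and SLC3A2, SNHG9 and the ribosomal protein gene RPS2, and SNHG10 and GLRX5, a gene of iron-sulfur cluster assembly, each had 1 summit on either side of the canonical host TSS. At SNHG1 the coding side was taller, with 35 fragments 138 bp downstream of the nearest SLC3A2 TSS. The SNHG1 side had 18 fragments, 428 bp downstream of the canonical SNHG1 TSS and -6 bp from the nearest SNHG1 TSS. SNHG9 showed the same order, with 19 fragments 40 bp downstream of the nearest RPS2 TSS. The SNHG9 side had 13 fragments, 527 bp downstream of the canonical SNHG9 TSS and 388 bp from the nearest SNHG9 TSS. SNHG10 had 11 fragments on its own side and 10 on that of GLRX5.

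The remaining divergent pairs had summits on 1 side. The summits of GAS5 and ZFAS1 lay on the host side, at -673 bp from the nearest TSS of ZBTB37 and -644 bp from that of ZNFX1, both zinc finger genes. At SNHG19 the only summit lay 333 bp downstream of the nearest TSS of TRAF7, a ubiquitin ligase gene, and 757 bp upstream of SNHG19. In the other 3 shared cases a coding transcript starts on the same strand at or near the host gene, namely SEC14L1 at SNHG20 and 2 coding gene models without a symbol, ENSG00000271793 at SNHG5 and ENSG00000256029 at SNHG28. Counting only canonical coding TSSs left 4 shared cases, and a limit of 500 bp from the summit to a coding TSS left 5 (25%, 8.66 to 49.1), those of SNHG1, SNHG5, SNHG9, SNHG19 and SNHG20, without GAS5, SNHG10, SNHG28 and ZFAS1. The 4 with canonical coding TSSs were GAS5, SNHG9, SNHG10 and SNHG19 (20%, 5.73 to 43.7), and with summits counted within 200 bp only the SNHG20 peak was shared, 1 of 12 (8.33%). Height did not separate the groups, since the median pileup was 15 fragments in the 9 shared peaks (7 to 35) and 15 in the 11 others (9 to 24).

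Promoter sequences are shown for host genes that span the range of the data and whose start is not covered by a coding transcript: SNHG1, SNHG29, SNHG7, SNHG12 and SNHG19 with a peak, and SNHG32 and SNHG8 without. They are RefSeq windows of GRCh38.p14 from 250 bp before to 50 bp after the RefSeq start, written 5′ to 3′ on the gene's strand, and the SNHG1 window begins at -118 because SLC3A2 transcripts cover the bases before it. RefSeq starts can differ from the GENCODE canonical TSS. The largest distances, positive downstream, were -1056 bp at GAS5, 1113 bp at SNHG12, 1927 bp at SNHG20, 37251 bp at SNHG27 and -369705 bp at SNHG14. The genes were picked after their values were seen. A gene with a peak need not have it over this window. Of the printed genes, only the windows of SNHG1 and SNHG12 overlapped a peak, at SNHG1 in bases not printed. Of the other host genes, only those of SNHG16, SNHG17 and ZFAS1 did. Capitals mark matches to the letters searched and a TOP run at the first base.
SNHG1 (chr11:62855836-62856003, minus strand): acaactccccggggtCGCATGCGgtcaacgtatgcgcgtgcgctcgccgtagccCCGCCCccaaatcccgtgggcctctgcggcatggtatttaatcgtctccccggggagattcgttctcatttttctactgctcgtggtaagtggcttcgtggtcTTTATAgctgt
SNHG29 (chr17:16438737-16439036, plus strand): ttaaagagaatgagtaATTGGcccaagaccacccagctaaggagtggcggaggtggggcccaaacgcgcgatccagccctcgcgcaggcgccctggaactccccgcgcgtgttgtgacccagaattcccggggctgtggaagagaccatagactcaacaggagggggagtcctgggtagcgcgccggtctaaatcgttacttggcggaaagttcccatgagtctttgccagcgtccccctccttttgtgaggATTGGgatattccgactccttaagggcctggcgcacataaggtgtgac
SNHG7 (chr9:136728135-136728434, minus strand): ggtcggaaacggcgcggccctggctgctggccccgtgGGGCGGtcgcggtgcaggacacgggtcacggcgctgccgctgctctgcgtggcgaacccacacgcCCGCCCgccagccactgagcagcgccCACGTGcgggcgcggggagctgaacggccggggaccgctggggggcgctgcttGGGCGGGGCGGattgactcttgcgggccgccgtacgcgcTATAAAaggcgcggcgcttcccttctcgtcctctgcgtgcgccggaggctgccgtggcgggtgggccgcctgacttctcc
SNHG12 (chr1:28581824-28582123, minus strand): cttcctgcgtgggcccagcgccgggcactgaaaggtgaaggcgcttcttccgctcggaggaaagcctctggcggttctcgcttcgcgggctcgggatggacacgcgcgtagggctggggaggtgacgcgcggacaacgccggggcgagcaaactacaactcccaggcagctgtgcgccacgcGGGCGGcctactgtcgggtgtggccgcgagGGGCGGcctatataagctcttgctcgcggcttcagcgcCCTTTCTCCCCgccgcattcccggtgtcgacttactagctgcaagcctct
SNHG19 (chr16:2155309-2155608, minus strand): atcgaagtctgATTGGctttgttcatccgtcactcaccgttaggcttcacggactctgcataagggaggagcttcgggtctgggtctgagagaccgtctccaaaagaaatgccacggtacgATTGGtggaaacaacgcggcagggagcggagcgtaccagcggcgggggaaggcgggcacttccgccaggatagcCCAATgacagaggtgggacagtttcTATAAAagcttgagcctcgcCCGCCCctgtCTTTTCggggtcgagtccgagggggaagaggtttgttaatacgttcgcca
SNHG32 (chr6:31834666-31834965, plus strand): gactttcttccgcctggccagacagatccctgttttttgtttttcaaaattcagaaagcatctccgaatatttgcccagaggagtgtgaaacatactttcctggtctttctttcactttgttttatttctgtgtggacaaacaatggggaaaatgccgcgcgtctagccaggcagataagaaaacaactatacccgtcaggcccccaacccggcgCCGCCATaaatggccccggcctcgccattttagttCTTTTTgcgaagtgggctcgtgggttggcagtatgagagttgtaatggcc
SNHG8 (chr4:118278512-118278811, plus strand): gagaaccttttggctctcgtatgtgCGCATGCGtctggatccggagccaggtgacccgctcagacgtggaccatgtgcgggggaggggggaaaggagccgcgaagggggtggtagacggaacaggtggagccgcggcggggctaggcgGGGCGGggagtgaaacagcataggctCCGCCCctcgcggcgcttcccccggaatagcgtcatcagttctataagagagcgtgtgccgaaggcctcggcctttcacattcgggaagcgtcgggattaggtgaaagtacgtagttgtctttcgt

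A TOP start, here C at the RefSeq first base followed by at least 4 pyrimidines, was present in 7 of the 27 host genes with a RefSeq window, which SNHG6, SNHG9, SNHG15 and SNHG25 lacked. Over all 35116 windows the share was 4.07%, and over 4051 windows of other lncRNA genes 3.51%. Of these host genes, SNHG12, SNHG19, SNHG5 and ZFAS1 had an ING5 peak, and SNHG32, SNHG4 and SNHG18 had none, which makes 4 of 16 with a peak and 3 of 11 without. The printed windows show the run in SNHG12, SNHG19 and SNHG32. At GAS5, SNHG12, SNHG14, SNHG20 and SNHG27 the RefSeq first base lay more than 1000 bp from the canonical TSS. For these genes the count does not describe the canonical start.

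The other letters were searched on both strands, with overlapping matches allowed. The GC box letters GGGCGG, bound by SP and KLF factors, were in 20 of 27 host windows against 45.0% of all windows, in 12 of the 16 with a peak and 8 of the 11 without. TATA box letters TATAAA were in 4 windows (11.5% of all), those of SNHG1, SNHG7, SNHG11 and SNHG19. All 4 genes had a peak, but only the SNHG1 window overlapped one. In SNHG7 and SNHG19 the TATA letters began 30 bases before the start, as printed above. In SNHG1 the match was on the other strand and downstream of the start, at base 40. The NRF1 core GCATGCG was in 4 windows (3.91% of all), of SNHG1, SNHG3, SNHG8 and SNHG27, of which only SNHG1 had a peak. CCAAT, the NFY letters, were in 8 windows (34.6% of all). ETS letters CCGGAAG were in 2 (10.3%), the E-box CACGTG in 2 (7.26%), the YY1 core ATGGCGG in 3 (5.55%), all without a peak, the ZBTB33 core CGCGAGA in 2 (3.49%), and the CRE core TGACGTC in 0 (3.45%). A match describes letters in this window and is not a binding site. Most windows of host genes with a peak did not overlap the peak.

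No summit lay within 1000 bp of a start at 11 host genes: DANCR, SNHG3, SNHG4, SNHG8, SNHG14, SNHG18, SNHG22, SNHG27, SNHG30, SNHG31 and SNHG32. SNHG3 was closest to having one, with a summit 2233 bp from its nearest TSS. The body of that peak reached within 1000 bp of an SNHG3 start, so SNHG3 was gained, for 21 of 31 host genes, when any overlap was counted or the window was 3000 bp. For the other 10 the nearest summit lay 19905 to 1787408 bp away. The coding neighbours within 1000 bp were RCC1 at SNHG3, MATR3 (gene entry ENSG00000280987) at SNHG4, SEMA5A at SNHG18, ACAA2 at SNHG22 and BARD1 at SNHG31. Of these entries only RCC1, an exchange factor gene for the GTPase Ran, had a promoter peak. SNHG14, the long host of 83 box C/D snoRNA genes in the imprinted Prader-Willi region, had no summit within 1000 bp of any of its 111 TSSs.

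Some of these genes lay in stretches with few peaks of any kind, and others among many peaks. Within 1 Mb of SNHG18 there were 19 peaks and 5 of 7 coding genes had a peak (71.4%), around SNHG3 20 peaks and 13 of 29 coding genes (44.8%), and around SNHG4 18 peaks and 10 of 28 (35.7%). No peak stood within 1 Mb of the canonical TSS of SNHG8, SNHG27, SNHG31 or SNHG32. SNHG27 had no coding gene within that distance, SNHG8 had 7 and SNHG31 had 6, none with a peak. Around SNHG32, 97 coding genes had their start within 1 Mb and 0 had a peak (exact upper limit 3.73%). SNHG32 lies in the major histocompatibility region, where no summit lay between 28485161 and 33621791 on chromosome 6. Of 185 coding genes with a TSS more than 1000 bp inside that stretch, 1 had a peak (0.541%, exact upper limit 2.97%), at another of its TSSs outside it. The stretch was picked after its values were seen, and without its genes 20 of 30 host genes had a peak (66.7%, 47.2 to 82.7). At SNHG32, a promoter without ING5 and a stretch without calls cannot be told apart. All 3 members on chromosome 4, where 16.9% of coding genes had a peak, were without, as were both on chromosome 5, where 35.1% had.

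Genes encoding the proteins that act with the host genes' products had promoter peaks in part. All 4 box C/D core protein genes had a promoter peak (100%, 39.8 to 100), led by NOP56 with 21 fragments and 11.9-fold, SNU13 with 13 and 7.55-fold, and the methyltransferase gene FBL with 12 and 7.01-fold. Of 4 box H/ACA core genes 2 had one (50%, 6.76 to 93.2), NHP2 with 18 fragments and the pseudouridine synthase gene DKC1 with 15. Assembly factor genes had 5 of 10 (50%, 18.7 to 81.3), of which the most significant were the ATPase genes RUVBL1 with 21 fragments and RUVBL2 with 15, then PIH1D1 and SHQ1 with 11 each. Nonsense-mediated decay factor genes had 6 of 10 (60%, 26.2 to 87.8), among them UPF3A with 21 fragments and UPF1 with 16. The rate over all coding genes, 30.9%, lay inside the intervals of the H/ACA, assembly and decay lists and below that of the 4 box C/D genes. No list was tested against that rate. NOP56 and DKC1 span snoRNA genes themselves and are counted again in the list of coding genes that follows.

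Coding genes that carry snoRNAs were bound at 13 of 15 of the fixed list without ribosomal protein genes (86.7%, 59.5 to 98.3). RACK1, a ribosome-associated scaffold gene, had 28 fragments and 15.6-fold, the helicase gene EIF4A1 26 and 14.6-fold, and the elongation factor gene EEF2 and NOP56 21 and 11.9-fold each. The exceptions were TPT1 and PRRC2A, and PRRC2A lies in the stretch of chromosome 6 without peaks. By annotation, 140 of 242 coding genes that span a snoRNA gene had a promoter peak (57.9%, 51.4 to 64.1), and 113 of 212 (53.3%, 46.3 to 60.2) without ribosomal protein genes. Other lncRNA genes spanning a snoRNA gene had 8 of 30 (26.7%, 12.3 to 45.9), against 16 of 25 named host genes (64.0%, 42.5 to 82.0). Among those 8 with a peak were ENSG00000264772 with 26 fragments, which shared its peak with EIF4A1, and ENSG00000248664 with 13, which shared its peak with CCNB1. MIR99AHG had 14 fragments and ENSG00000290993 had 11, with no coding TSS within 1000 bp of the summit.

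Of 10 hepatocyte genes, among them ALB, APOA1 and HNF4A, 0 had a promoter peak (exact upper limit 30.8%), as had 0 of 10 genes of other cell types (30.8%), so these peaks give no check of the labelled cell type.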

How the data were processed

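The ChIP library and the input came from untreated HepG2 cells, and only the ChIP library has a peak list. Per the file headers, MACS2 (version 2.1.1.20160309) called the peaks from paired-end reads, with p below 1e-05, on 12416135 ChIP and 9915132 input fragments after filtering. Per the submitters' processing notes, the other tools were fastp 0.19.6, deepTools and Bowtie2. The deposited pileup is a coverage signal in fragments at the summit. The deposited significance is −log10 p, used to rank peaks and to choose a gene's best peak. The deposited −log10 q was not used, since the headers say it was not calculated. The deposited fold enrichment is a ratio of pileup to local background with a pseudocount of 1 on both, from which local background was recovered. All 3 quantities were computed by the authors per peak and are used only within this list.

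GRCh37 is the build in the labels, but 6527 of 8589 summits (76.0%) lay within 1000 bp of a coding TSS at GRCh38 positions and 1175 (13.7%) at GRCh37 positions, so GRCh38 was used, with gene positions from the original locations recorded in GENCODE 44. Promoter windows and snoRNA genes came from RefSeq (GRCh38.p14), matched by symbol, and the snoRNA table has no strand, so snoRNA genes inside a host were counted on either strand where the plan had asked for the host's strand. Counts were made in Python 3.11.15 with pandas 2.3.3 and scipy 1.17.1. Shares have exact binomial intervals, medians have order-statistic intervals, and the interval of a difference combines those of its 2 shares. Assignment of peaks to genes was tested on simulated data. The members and lists were chosen with earlier results of these data known, so no test was made over them. All members were named, with up to 3 genes of each list, ties included, and up to 5 other lncRNA genes that span snoRNAs. Of the genes this rule picks, 2 are not reported here. Alternatives changed the window, TSSs, peaks or genes compared, and 3 of them (genes listed in RefSeq, CpG-rich promoters, and genes outside the empty stretch of chromosome 6) were added after the data were seen.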

Additional observations from a re-analysis of the deposited data

How the results depend on the processing

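The share of host genes with a peak was above that of other lncRNA genes in 11 of 11 settings, and in 11 of 11 without a coding TSS nearby, and no direction reversed. Of 102 values recomputed, 72 stayed within the interval of the main value and 30 moved. With a 200-bp window the shares were 38.7% and 2.47%, a difference of 36.2 points, with 0.675% of other lncRNA genes away from coding TSSs and 8.33% of host peaks shared with a coding promoter. With the 1000 most significant peaks the shares were 22.6% and 1.41%, a difference of 21.2 points, and 23.5% and 0.278% away from coding TSSs, with a median fold enrichment of 10.8. Among CpG-rich promoters the share of other lncRNA genes was 36.4%, the difference 21.9 points, and the share away from coding TSSs 15.4%.

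In the other settings the share of other lncRNA genes moved, overall and away from coding TSSs, to 11.1% and 3.87% with a 3000-bp window, 8.12% and 2.70% with the canonical TSS alone, 5.29% and 1.04% with the more significant 50% of peaks, 16.4% and 5.77% in genes with at least 5 TSSs, 5.23% and 1.28% with peaks at the lowest background, and 14.6% and 3.68% in genes listed in RefSeq. Any overlap of a peak with the window gave 9.17% overall. Shared peaks fell to 22.2% with canonical TSSs alone, for host and coding genes alike, and to 20% with only coding TSSs restricted to canonical ones. The same 4 host genes were shared in both settings. With any coding TSS within 500 bp the share was 25%. The median offset fell to 68.5 bp when taken to the nearest TSS.

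Peaks at host genes rest on 7 to 35 fragments at the summit. Whether weaker binding at the 11 other host genes was missed at this depth was not tested. No paired analysis was possible because there is 1 ChIP library and 1 input, and no replicate could be left out.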
